A study of Mus musculus with 31 samples.

Results

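The insulin-like growth factor (IGF) system was followed in mouse embryonic fibroblasts (MEFs) during the first 12 days of reprogramming. Its 10 members here are the ligands Igf1 and Igf2, the receptors Igf1r and Igf2r, and the binding proteins Igfbp2, Igfbp3, Igfbp4, Igfbp5, Igfbp6 and Igfbp7. They were found by gene symbol among 19938 measured genes, and each has a single row on the array, so no choice between rows was needed. All 10 were described, and no filter on low signal was applied. MEFs kept in DMEM with 10% foetal bovine serum were infected on day 0. The 4F arm got retroviruses that carry Oct4, Sox2, Klf4 together with c-Myc, the 3F arm the same set without c-Myc, and the control arm GFP virus. Uninfected MEFs of day 0 had 2 arrays. The 4F arm had 2 arrays on each of days 1, 2, 3, 4, 5, 6 and 8 and 1 array each on days 10 and 12. The GFP arm had 2 arrays on days 1, 3, 5 and 8 and 1 on day 12, and the 3F arm had 1 array each on days 3, 5, 8 and 12. The titles call the arrays of a pair biological replicates, without naming separate cultures or embryos. Outside the fit for 3F, p-values therefore measure the spread between these arrays. The labels give neither a mouse strain nor an embryonic age. Single arrays have no replicate check. They carry no replicate number, in 4F and GFP as in 3F. In 4F days 10 and 12 and in GFP day 12 are unnumbered and all earlier arrays are numbered. Day and array set therefore cannot be told apart for these late arrays.

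IGF1 and IGF2 are secreted hormones that promote growth and survival through the receptor tyrosine kinase IGF1R, which signals through IRS adaptors to PI3 kinase and AKT and through SHC to the MAP kinases. IGF2R, which is also the mannose 6-phosphate receptor, takes up IGF2 and delivers it to lysosomes, and so limits the ligand. The secreted binding proteins IGFBP1 to IGFBP6 hold most IGF outside cells, and proteases such as pappalysin (PAPPA) release it. IGFBP7 binds IGFs weakly and binds insulin. Fibroblasts and other mesenchymal cells are a local source of IGFs and IGFBPs.

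Values are log2 signals as the authors deposited them, in which a step of 1 is a factor of 2 in signal. Signals of different genes come from different probes and are not set against each other. The 12 arrays numbered replicate 1 used 120 ng of RNA for labelling, the other 19 used 300 ng. On day 0, 13 of 14 fibroblast markers lay above 6.17, the highest median of any array, against 0 of 12 pluripotency and 0 of 5 hepatocyte markers. Of the other lists, 5 of 7 neural, 3 of 7 skeletal muscle, 3 of 6 chondrocyte and bone, 2 of 5 adipocyte, 3 of 10 epithelial, 2 of 7 endothelial and 2 of 8 macrophage markers lay above it. The signals of the delivered genes Pou5f1 (Oct4; lowest 6.05 in 4F and 6.3 in 3F, highest 5.6 in GFP) and Sox2 (5.74, 5.86 and 5.57) were above GFP in every 4F and 3F array, though the uninfected arrays had Sox2 signals of 5.66 and 5.98, and the lowest 4F and 3F arrays lie between these. Klf4 and Myc were not: Klf4 ran from 6.65 to 7.61 in 4F and 7.67 to 8.15 in GFP, and Myc ran from 6.37 to 8.5 in 4F, 7.95 to 9.37 in 3F and 6.58 to 9.72 in GFP. Where the Klf4 and Myc probes lie was not examined, so the presence of c-Myc in 4F and its absence in 3F rest on the labels. One label of the 3F arrays announces 4 factors and lists 3; their titles decided the group.

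Of the 2 ligands, Igf1 rose in GFP cultures and stayed under 7 in 4F. Igf1 signal was 6.12 and 6.08 in the day 0 arrays. In GFP it was 6.61 and 5.96 on day 1, 7.77 and 6.38 on day 3, 8.64 and 7.89 on day 5, 10.34 and 9.6 on day 8, and 10.55 on day 12. In 4F it kept between 5.73 and 6.97 over all 16 arrays, with 5.86 and 5.92 on day 8 and 6.34 on day 12. The 4F and GFP arrays overlapped on days 1 and 3, and did not overlap on days 5 and 8. On day 3 the replicate sets had opposite signs (4F minus GFP, -1.24 in set 1 and 0.21 in set 2). On day 8 4F minus GFP was -4.08 ± 0.39 on the log2 scale (SE from limma, adjusted p = 2.4e-06, 2 arrays in each arm), a 16.9-fold lower signal, with -4.47 in the replicate 1 set and -3.68 in the replicate 2 set. GFP on day 8 was 3.87 ± 0.39 above day 0 (adjusted p = 9.9e-06), while 4F on day 8 differed from day 0 by -0.21 ± 0.39 (adjusted p = 0.85). The Igf1 signals of day 0 and of 4F on day 8 all lay under 6.17, the highest median of any array. At so low a signal a fall from day 0 in 4F could hardly be seen, and background may limit the fold.

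Igf2, the fetal growth factor of the family, fell in 4F. Igf2 signal was 11.45 and 11.34 on day 0. In 4F it was 11.11 and 10.93 on day 1, 10.09 and 10.56 on day 2, 9.49 and 9.37 on day 3, 9.06 and 8.75 on day 4, 8.42 and 8.6 on day 5, and 8.18 and 8.62 on day 6. It was then 9.17 and 8.42 on day 8, 9.4 on day 10 and 10.12 on day 12. The last 2 values are single unnumbered arrays, for which day and array set cannot be told apart. The 9 GFP arrays lay between 11.28 and 12.62, above every 4F array, whose highest was 11.11. The difference of 4F from GFP on day 8 was -3.53 ± 0.28 (adjusted p = 4.1e-07; -3.45 and -3.6 within the replicate sets). Against day 0 the difference was -2.6 ± 0.28 in 4F (adjusted p = 1.7e-05) and 0.92 ± 0.28 in GFP (adjusted p = 0.026). The small rise in GFP is the weaker call: it passed the threshold neither after quantile normalization (0.76, adjusted p = 0.14), nor with only the compared groups fitted (0.92, 0.069), nor without day 0 replicate 1 (0.98, 0.082), day 0 replicate 2 (0.87, 0.13) or GFP day 8 replicate 1 (0.62, 0.27).

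The promoter of Igf1 in the RefSeq table (GRCm38.p6, chr10:87860861-87861160, plus strand; 250 bases before to 50 after the annotated start) is shown because Igf1 is the ligand with the larger rise from day 0 in GFP; capitals mark a CCAAT box, here on the other strand as ATTGG.
Igf1: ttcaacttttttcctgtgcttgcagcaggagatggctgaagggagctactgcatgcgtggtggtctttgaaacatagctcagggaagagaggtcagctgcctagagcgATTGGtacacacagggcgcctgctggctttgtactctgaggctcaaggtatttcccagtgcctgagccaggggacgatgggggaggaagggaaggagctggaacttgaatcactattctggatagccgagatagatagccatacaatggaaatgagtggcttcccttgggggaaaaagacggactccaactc

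**Figure D1:**
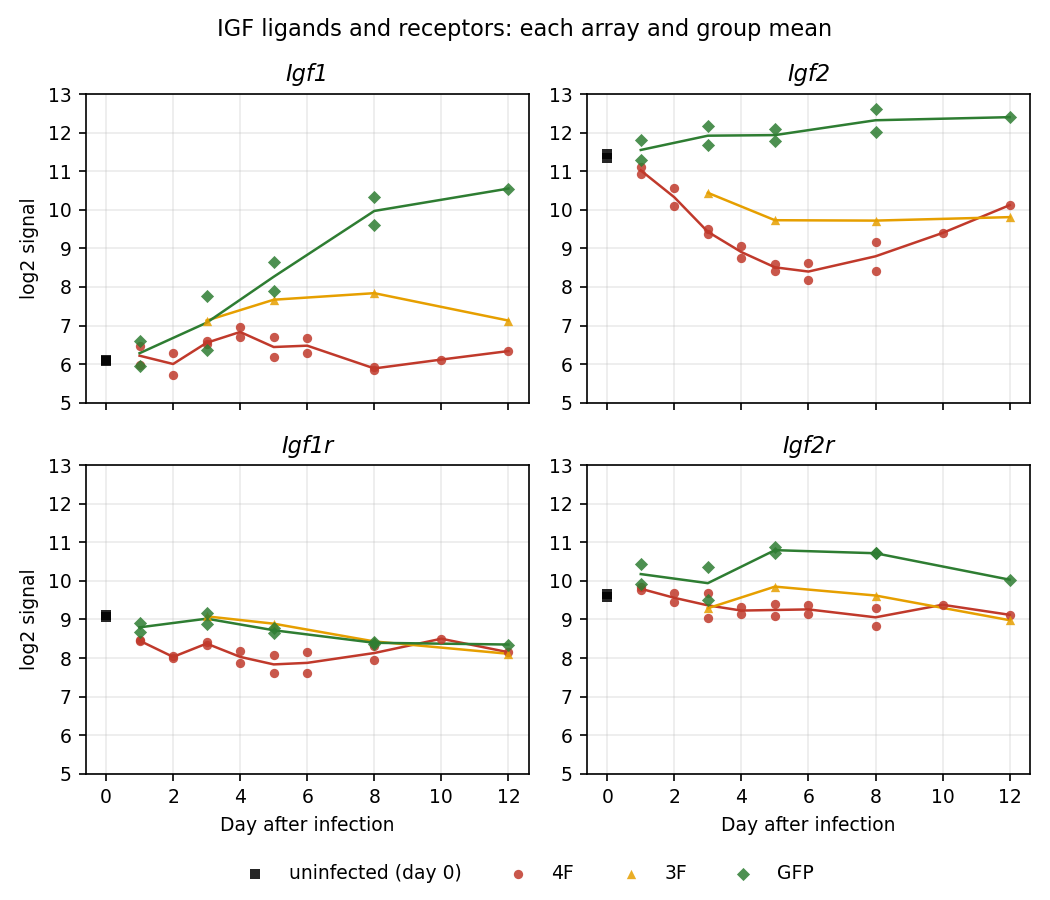
Log2 signal (vertical axis) against day after infection (horizontal axis) for the IGF ligands and receptors. Each point is 1 array, lines join group means, and colours and marks give the arm. Igf1 rises from about its day 0 level to 10.55 in GFP and stays under 7 in 4F, while Igf2 falls to between 8.18 and 8.62 in 4F on day 6 and stays above 11 in GFP. The receptors move less.

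Of the 2 receptors, Igf1r fell modestly in both arms and Igf2r rose in GFP. Igf1r signal was 9.06 and 9.12 on day 0, the highest group mean of the 19 groups (9.09). In 4F it was 8.46 and 8.44 on day 1, 8.42 and 8.33 on day 3, 8.07 and 7.6 on day 5 and 8.31 and 7.95 on day 8. In GFP it was 8.92 and 8.67, 8.87 and 9.17, 8.65 and 8.79, and 8.42 and 8.37 on the same days. On each of these days both 4F arrays lay below both GFP arrays, but the arms came close together by day 8. By day 8 Igf1r was below day 0 in 4F (-0.96 ± 0.19, adjusted p = 0.002) and in GFP (-0.69 ± 0.19, adjusted p = 0.014). The GFP call did not pass without day 0 replicate 1 (-0.72, adjusted p = 0.057), day 0 replicate 2 (-0.67, 0.078), GFP day 8 replicate 1 (-0.72, 0.059) or GFP day 8 replicate 2 (-0.67, 0.061). Between the arms Igf1r differed on day 5 (-0.88 ± 0.19, adjusted p = 0.0028), and on day 8 the difference was -0.27 ± 0.19 (adjusted p = 0.34).

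Igf2r signal was 9.65 and 9.59 on day 0. In GFP it was 10.44 and 9.91 on day 1, 10.37 and 9.51 on day 3, 10.71 and 10.88 on day 5, 10.71 and 10.72 on day 8 and 10.03 on day 12. In 4F it lay between 8.82 and 9.83 in all 16 arrays, with 9.29 and 8.82 on day 8. The arms overlapped on day 3 and stood apart on days 5 and 8. GFP on day 8 was 1.09 ± 0.26 above day 0 (adjusted p = 0.0066), and 4F differed from day 0 by -0.56 ± 0.26 (adjusted p = 0.19). Between the arms the difference on day 8 was -1.65 ± 0.26 (adjusted p = 0.00018; -1.42 and -1.89 within the replicate sets).

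The 6 binding proteins followed different courses. Igfbp3, the main carrier of IGF in blood, was above day 0 from day 1 on in every infected array. It was 7.77 and 7.95 on day 0. On day 1 it was 9.1 and 9.55 in 4F and 9.45 and 8.81 in GFP. In GFP it went on to 10.42 and 9.27 on day 3, 10.87 and 10.5 on day 5, 11.98 and 11.85 on day 8 and 12.27 on day 12. In 4F the later arrays (days 2 to 12) stayed between 8.47 and 9.84. Igfbp3 in GFP on day 8 was 4.05 ± 0.37 above day 0 (16.6-fold, adjusted p = 4.6e-06), the largest rise among the 10 members. In 4F on day 8 it was 1.25 ± 0.37 above day 0 (adjusted p = 0.03). That call did not pass without any 1 of its arrays: leaving out day 0 replicate 1 gave 1.17 (adjusted p = 0.15) and day 0 replicate 2 gave 1.34 (0.093), while the 4F day 8 arrays gave 1.22 (replicate 1 out, 0.11) and 1.29 (replicate 2 out, 0.087). The difference between the arms on day 8 was -2.8 ± 0.37 (adjusted p = 3.9e-05).

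Igfbp4 and Igfbp5, a pair of binding proteins made by many connective tissue cells, both rose in GFP culture. Igfbp4 was 9.36 and 8.68 on day 0. In GFP it was 9.39 and 8.37 on day 1, 10.2 and 9.14 on day 3, 10.8 and 9.91 on day 5, 12.54 and 11.35 on day 8 and 12.36 on day 12. In 4F it lay between 7.56 (day 3) and 8.87 (day 1). In GFP the replicate 1 array was the higher one on each day. Igfbp5 was 8.31 and 8.73 on day 0, 9.01 and 9.2 in GFP on day 1, 8.87 and 7.42 on day 3, 9.89 and 9.72 on day 5, 11.45 and 10.62 on day 8 and 11.06 on day 12. In 4F it ran from 6.45 (day 3) to 8.74 (day 6), and its replicates stood far apart on some days, with 6.59 and 8.02 on day 5 and 6.85 and 8.74 on day 6. On day 8 both were below GFP, Igfbp4 by 12.7-fold (-3.67 ± 0.47, adjusted p = 3.3e-05) and Igfbp5 by 9.62-fold (-3.27 ± 0.63, adjusted p = 0.001). Within the replicate sets the differences were -4.0 and -3.34 for Igfbp4 and -3.88 and -2.65 for Igfbp5. GFP on day 8 exceeded day 0 for both (2.92 ± 0.47, adjusted p = 0.0004, and 2.51 ± 0.63, adjusted p = 0.0096), while 4F differed from day 0 by -0.75 ± 0.47 and -0.76 ± 0.63 (adjusted p = 0.38 and 0.56). The Igfbp5 rise in GFP did not pass without day 0 replicate 1 (2.3, adjusted p = 0.072) or GFP day 8 replicate 1 (2.09, 0.097).

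Igfbp2, the binding protein that is abundant in fetal tissue, had a course in 4F that no other member showed by eye: low until day 6, then high. Igfbp2 was 7.66 and 7.3 on day 0. In 4F it was 6.97 and 6.74 on day 1, 6.65 and 6.63 on day 2, 6.62 and 6.43 on day 3, 6.71 and 6.26 on day 4, 6.59 and 6.47 on day 5 and 7.21 and 6.71 on day 6. It was then 9.1 and 8.97 on day 8, 9.71 on day 10 and 9.87 on day 12. The day 8 arrays do not overlap with any earlier 4F array or with day 0. In GFP it was 7.78 and 6.87 on day 1, 9.02 and 8.17 on day 3, 9.12 and 8.81 on day 5, 9.2 and 9.79 on day 8 and 9.62 on day 12. By day 8 Igfbp2 was above day 0 in both arms, by 1.55 ± 0.31 in 4F (adjusted p = 0.0025) and by 2.02 ± 0.31 in GFP (adjusted p = 0.00026). Against GFP, 4F was lower on day 3 (-2.07 ± 0.31, adjusted p = 0.00048) and day 5 (-2.44 ± 0.31, adjusted p = 5.9e-05). On day 8 the difference was -0.46 ± 0.31 (adjusted p = 0.32), with -0.1 and -0.82 within the replicate sets. The change of the arm difference between day 5 and day 8 was not tested.

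In the RefSeq annotation Igfbp2 and Igfbp5 are neighbouring coding genes on chromosome 1, and Igfbp3 lies beside Igfbp1 on chromosome 11. The members of the first pair parted in 4F: Igfbp2 ended above day 0 and Igfbp5 did not. Igfbp1, which is no member, differed by -0.16 ± 0.13 between 4F and GFP on day 8 (adjusted p = 0.41). The promoters of this pair, and that of Igfbp4, whose course was the most like that of Igfbp5 among the 10 members, are printed from the RefSeq table (GRCm38.p6), 300 bases each. Igfbp2 (chr1:72824230-72824529, plus strand) is the first of its 2 listed starts. Igfbp5 (chr1:72874816-72875115, minus strand) and Igfbp4 (chr11:99040994-99041293, plus strand) have 1 start each. Capitals mark the motifs found.
Igfbp2: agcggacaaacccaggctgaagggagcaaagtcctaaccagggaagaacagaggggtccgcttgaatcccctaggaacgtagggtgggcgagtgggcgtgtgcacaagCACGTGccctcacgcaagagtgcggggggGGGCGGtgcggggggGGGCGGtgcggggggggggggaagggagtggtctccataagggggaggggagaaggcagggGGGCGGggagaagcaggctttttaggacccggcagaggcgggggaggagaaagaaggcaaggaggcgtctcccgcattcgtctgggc
Igfbp5: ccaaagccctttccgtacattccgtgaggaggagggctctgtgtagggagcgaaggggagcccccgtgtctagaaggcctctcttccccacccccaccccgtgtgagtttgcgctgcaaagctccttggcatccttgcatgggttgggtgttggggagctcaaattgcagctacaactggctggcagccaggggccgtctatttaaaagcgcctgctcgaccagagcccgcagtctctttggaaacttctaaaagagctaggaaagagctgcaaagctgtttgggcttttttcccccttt
Igfbp4: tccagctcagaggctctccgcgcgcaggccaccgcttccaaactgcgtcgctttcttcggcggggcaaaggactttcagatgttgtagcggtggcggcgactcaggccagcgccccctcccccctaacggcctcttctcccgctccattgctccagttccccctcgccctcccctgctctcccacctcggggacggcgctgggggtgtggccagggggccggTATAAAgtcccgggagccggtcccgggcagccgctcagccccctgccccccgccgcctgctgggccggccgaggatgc

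All 10 members have promoters in that table, 14 in all. They were searched on both strands for the TATA box TATAAA, the E-box CACGTG, the GC box GGGCGG, the CCAAT box CCAAT and the octamer ATGCAAAT. No matches overlap in the printed windows. Over all 32851 promoters of the table, 13.6%, 7.15%, 35.7%, 37.4% and 1.74% hold them. The printed Igfbp2 promoter holds 1 E-box and 3 GC boxes, and that of Igfbp4 a TATA box 28 bases before the start. None of the 5 motifs stands in the printed Igfbp5 window. Of the others, the Igf2r promoter holds 2 E-boxes and 3 GC boxes and that of Igfbp7 4 GC boxes. That of Igf1r holds 2 GC boxes, and that of Igfbp6 1 TATA box and 2 CCAAT boxes. The Igf2 window at 142658755 holds 1 GC box, and that at 142657447 holds 2 GC boxes and 1 CCAAT box. The Igfbp3 window, the second Igfbp2 window and the remaining Igf2 windows hold none. The Igfbp2 and Igfbp5 windows contain 67% and 56.3% G and C, against a median of 52.7% over all promoters. These matches describe letters in a window and nothing about which factors bind there.

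Igfbp7, a matrix-associated relative of the family, fell in 4F and held level in GFP. It was 11.25 and 11.41 on day 0. In 4F it was 10.96 and 11.26 on day 1, 9.27 and 10.45 on day 2, 9.29 and 9.6 on day 3, 8.72 and 8.61 on day 5, 8.75 and 8.23 on day 8 and 9.18 on day 12. The 9 GFP arrays lay between 11.43 and 11.94, above all 16 4F arrays. On day 8 Igfbp7 in 4F was below GFP (-3.15 ± 0.29, adjusted p = 1.5e-06) and below day 0 (-2.84 ± 0.29, 7.17-fold, adjusted p = 1.1e-05), while GFP differed from day 0 by 0.31 ± 0.29 (adjusted p = 0.55). Igfbp6, which prefers IGF2 as its ligand, had the narrowest range of group means among the binding proteins (1.57, from 8.14 to 9.71). It was 8.79 and 9.35 on day 0, 8.65 and 7.94 in 4F on day 8 and 9.68 and 9.44 in GFP on day 8. In the single later arrays it was 8.75 (4F day 10), 9.42 (4F day 12) and 9.71 (GFP day 12). Its difference between the arms was -1.28 ± 0.3 on day 5 (adjusted p = 0.0061) and -1.27 ± 0.3 on day 8 (adjusted p = 0.0046). It missed the threshold on day 5 without GFP day 5 replicate 2 (-1.05, adjusted p = 0.073) and on day 8 without 4F day 8 replicate 2 (-0.91, adjusted p = 0.066). On day 8 it also missed the threshold when the 4 compared arrays were fitted alone (adjusted p = 0.06). In 4F the difference from day 0 was -0.78 ± 0.3 (adjusted p = 0.1), and -1.13 (0.042) without 4F day 8 replicate 1.

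**Figure D2:**
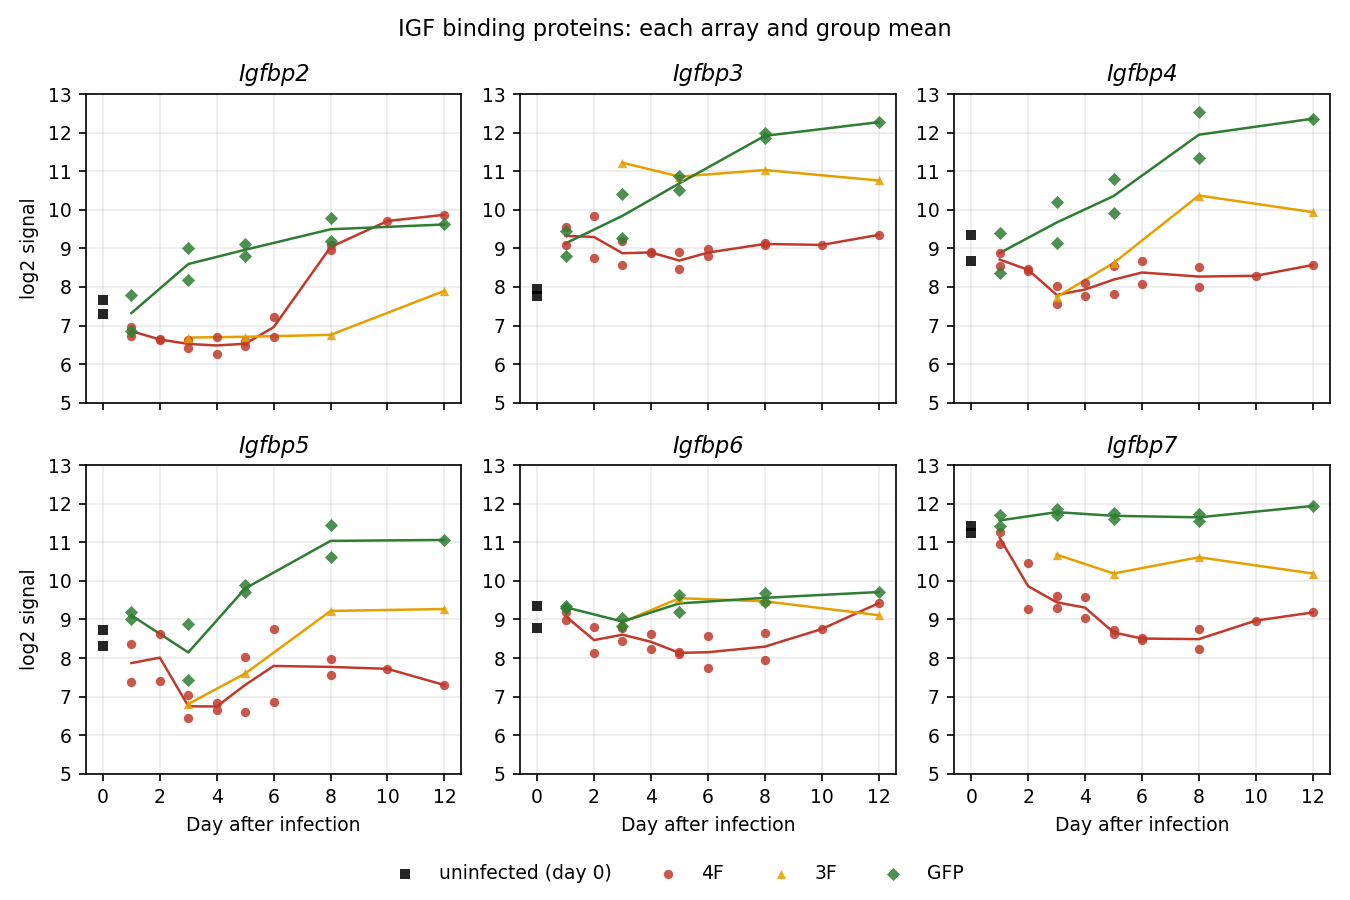
Log2 signal (vertical axis) against day after infection (horizontal axis) for the 6 IGF binding proteins. Each point is 1 array, lines join group means, and colours and marks give the arm. Igfbp3, Igfbp4 and Igfbp5 climb in GFP to between 10.62 and 12.54 on day 8. Igfbp2 in 4F stays at or under 7.21 through day 6 and reaches 9.87 on day 12, and Igfbp7 falls in 4F and stays between 11.43 and 11.94 in GFP.

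The design asks first how the 4 factors differ from GFP virus on the same day. On day 1 none of the 10 members passed a limma adjusted p of 0.05 (nor an unadjusted p of 0.05), with differences from -1.24 (Igfbp5) to 0.2 (Igfbp3), where 1.81% of all genes passed. On day 3, 5 of 10 were lower in 4F, where 5.65% of all genes were lower: Igf2 (-2.49 ± 0.28, adjusted p = 4.9e-05), Igfbp7 (-2.33 ± 0.29, 0.0001), Igfbp2, Igfbp4 (-1.87 ± 0.47, 0.018) and Igf1r (-0.64 ± 0.19, 0.035). On day 5 all 10 were lower, with differences from -0.88 (Igf1r) to -3.43 (Igf2) (10.9% of all genes lower). On day 8, 8 of 10 were lower, all except Igf1r and Igfbp2 (13% of all genes lower). The median over the members was -0.36, -1.18, -2.08 and -2.98 on the 4 days, and -0.02, -0.03, -0.01 and -0.03 over all genes. Averaged over these days, 8 arrays per arm, all 10 were lower (18.7% of all genes lower), from -0.54 ± 0.09 for Igf1r to -2.49 ± 0.14 for Igf2. Both 4F arrays lay below both GFP arrays for 6 members on day 1, 8 on day 3 and all 10 on days 5 and 8 (24.3%, 28.9%, 30.3% and 29.2% of all genes).

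The day 3 count was the least firm, with 3 members called when only the 4 compared arrays were fitted, where 760 of all genes passed in either direction. It was also 3 when either 4F array of that day was left out, or GFP day 3 replicate 1. Igf1r on day 3 lost its call whichever of the 4 arrays was left out (adjusted p from 0.056 to 0.18), and Igfbp4 lost it without 4F day 3 replicate 1 (adjusted p = 0.051), 4F day 3 replicate 2 (0.12) or GFP day 3 replicate 1 (0.21). Without GFP day 3 replicate 2, Igf2r (-1.01, adjusted p = 0.024) and Igfbp3 (-1.55, 0.018) passed as well. On day 5, 3 members missed the threshold without 4F day 5 replicate 1: Igf1 (-1.56, adjusted p = 0.052), Igfbp4 (-1.81, 0.057) and Igfbp5 (-1.79, 0.14). The same genes missed it without GFP day 5 replicate 1 (-1.44, 0.054; -1.72, 0.055; -2.42, 0.058).

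**Figure D3:**
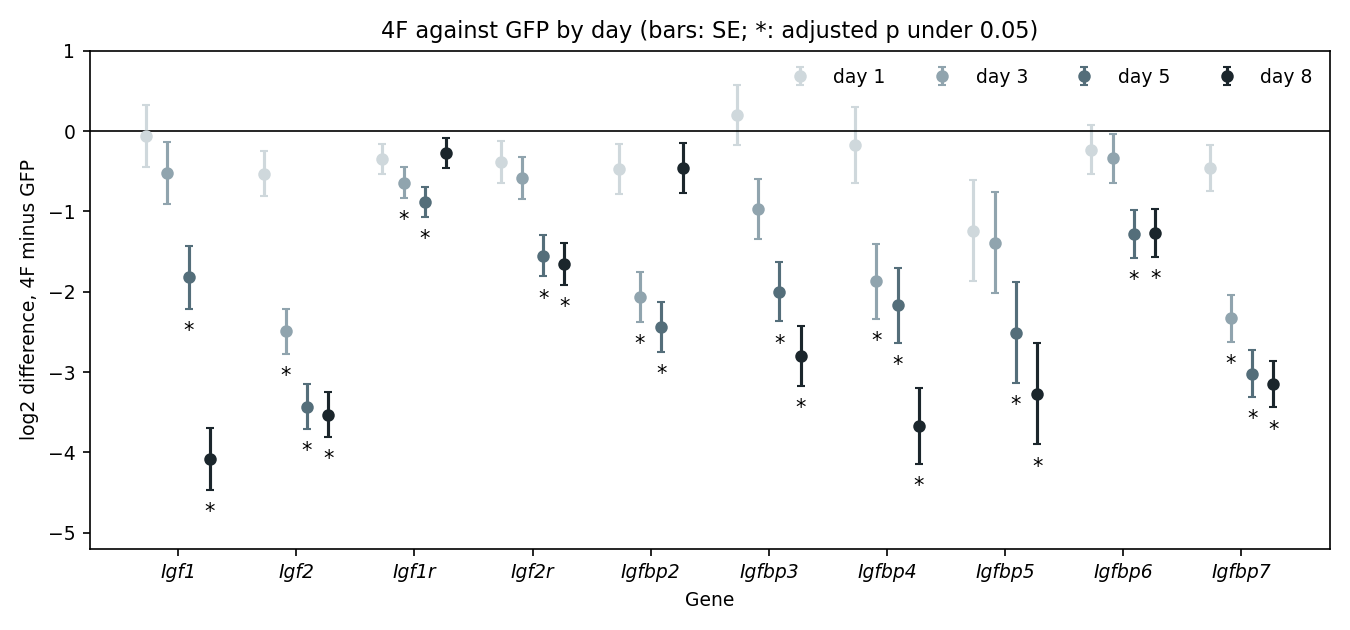
Log2 difference between 4F and GFP (vertical axis; below 0, 4F is lower) for each member (horizontal axis) on days 1, 3, 5 and 8, with the SE of the limma fit as bars and asterisks for an adjusted p under 0.05; 2 arrays per arm and day. For Igf1, Igfbp3, Igfbp4 and Igfbp5 day 8 is the lowest point (-4.08, -2.8, -3.67 and -3.27). It is also the lowest, little below day 5, for Igf2 (-3.53), Igfbp7 (-3.15) and Igf2r (-1.65). Igfbp2 returns from -2.44 on day 5 to -0.46 on day 8.

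Whether the arm difference had itself changed from day 1 to day 8 was tested as a contrast. It had become more negative for 6 of 10 members, where 4.57% of all genes did so: Igf1 (-4.02 ± 0.56, adjusted p = 0.00045), Igfbp4 (-3.5 ± 0.67, 0.0042), Igf2 (-3.0 ± 0.39, 0.00029), Igfbp3 (-3.0 ± 0.52, 0.0022), Igfbp7 (-2.7 ± 0.41, 0.00078) and Igf2r (-1.28 ± 0.37, 0.043). For Igfbp5 (-2.03 ± 0.89, adjusted p = 0.21) and Igfbp6 (-1.04 ± 0.42, 0.17) the change was negative in both replicate sets and did not pass. For Igf1r (0.08 ± 0.26) and Igfbp2 (0.01 ± 0.44) the change was near 0 with intervals that leave room for shifts in either direction. The Igf2r call was lost after quantile normalization (-1.02, adjusted p = 0.16), with the 8 compared arrays alone (-1.28, 0.074), and without 6 of the 8 arrays in turn, the exceptions being 4F day 8 replicate 1 and GFP day 1 replicate 1 (adjusted p from 0.092 to 0.17 in those 6).

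The second question is which arm had moved from the uninfected cells. These contrasts share the day 0 arrays and the day 8 arrays with those above, so their values are given side by side. On day 1 no member had passed in either arm (0.838% of all genes passed in 4F and 0.0903% in GFP). At an unadjusted p of 0.05, 2 members passed in each arm, with Igfbp3 furthest from day 0 in both (1.47 ± 0.37 in 4F, adjusted p = 0.097; 1.27 ± 0.37 in GFP, adjusted p = 0.22). On day 8, 7 of 10 members were higher and 1 was lower than day 0 in GFP (8.92% of all genes higher and 11.2% lower). In 4F 2 were higher and 3 lower (7.39% and 8.51% of all genes). For Igf1, Igfbp4, Igfbp5 and Igf2r the call stood in GFP and not in 4F. For Igfbp7 it stood in 4F and not in GFP, and for Igf2 it stood in both, in opposite directions. Igf1r was lower and Igfbp2 and Igfbp3 were higher in both arms. The GFP count of 8 was lower without day 0 replicate 1 or GFP day 8 replicate 1, where Igf2, Igf1r and Igfbp5 lost their calls. Each of these refits leaves 1 array in a group, and fewer of all genes passed in them as well.

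**Figure D4:**
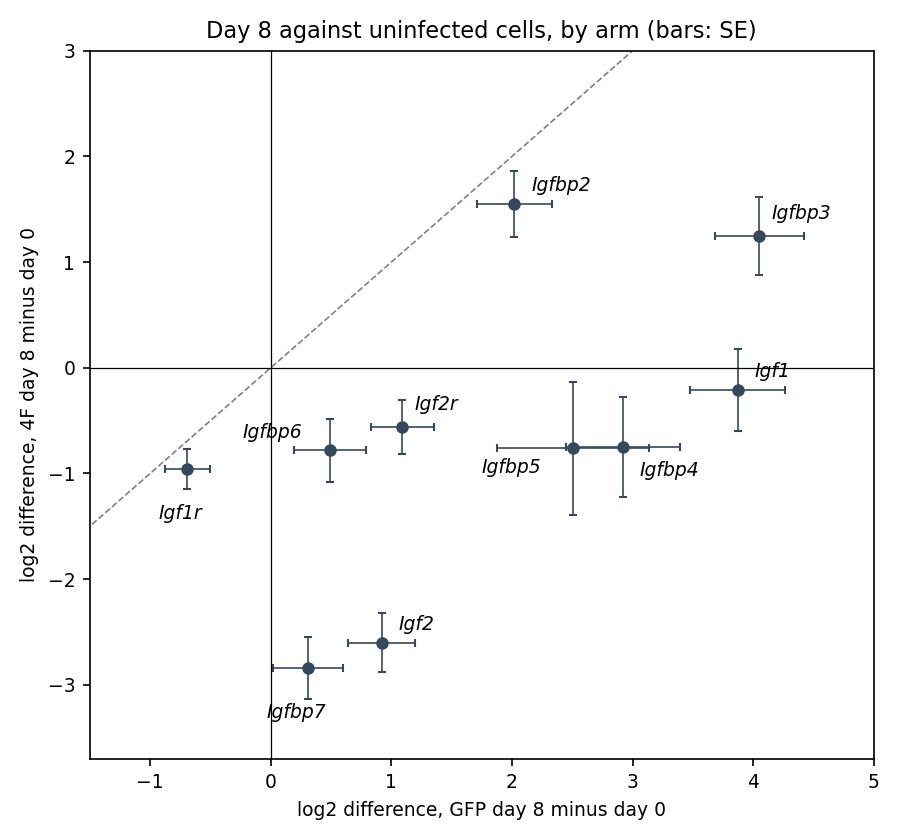
Log2 difference of day 8 from uninfected day 0 cells in GFP (horizontal axis) and in 4F (vertical axis), 1 point per member with SE bars from the limma fit, 2 arrays per group; on the dashed line both arms differ equally. The day 0 arrays are shared by both axes. Igf2 (0.92 and -2.6) and Igfbp7 (0.31 and -2.84) lie lowest, Igf1, Igfbp4 and Igfbp5 lie far right near or below 0 on the vertical axis, and Igf1r and Igfbp2 lie nearest to the line.

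The signals are of bulk cultures, in which fewer cells of a type and less RNA per cell cannot be told apart. Most fibroblast markers were lower in 4F than in GFP on day 8, as 8 of the 10 members were. Of 14, 13 were lower (median -2.43), where 13% of all genes were lower. Their mean log2 signal was 10.12 and 10.29 in the day 0 arrays. On day 8 it was 9.21 and 9.39 in 4F and 11.74 and 11.8 in GFP. In 4F against day 0, 8 markers were lower and 1 higher (median -1.21), and 3 members were lower and 2 higher (median -0.75). Of all genes 8.51% were lower and 7.39% higher in that contrast. Pluripotency markers rose in 4F, with 10 of 12 higher than GFP on day 8 (median 2.09), where 14.5% of all genes were higher. Their mean signal was 6.91 and 8.18 against 5.49 and 5.71. Of 10 epithelial markers 6 were higher, among them Epcam, which is also on the pluripotency list and is counted in both. Of 7 neural markers 3 were called higher, Stmn2 (3.95), Fabp7 (2.24) and Nes (1.69). Pax6 (0.46), Dcx (0.02), Tubb3 (0.01) and Map2 (-0.92) were not called, and all 7 were named after their values were seen. The mean signal of the 7 was 7.0 on day 0, and 7.08 in 4F and 6.02 in GFP on day 8. Against day 0 Stmn2 (-3.14) and Nes (-2.3) were lower in GFP, while in 4F only Fabp7 passed (1.23). In the other lists 1 of 8 macrophage, 1 of 7 endothelial, 0 of 7 skeletal muscle, 1 of 5 adipocyte, 2 of 6 chondrocyte and bone and 0 of 5 hepatocyte markers passed between the arms on day 8. Of all genes 13% passed as lower and 14.5% as higher in that contrast. The part of these shifts in the members' values was not tested.

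The third question is what leaving c-Myc out changes. The 3F arm has 1 array per day, so days stand in for replicates in the fit used here. The SEs and p-values of that fit also take in how far arm differences vary between days. With day and arm as additive terms on days 3, 5, 8 and 12 (7 4F, 4 3F and 7 GFP arrays), 3 of 10 members were higher in 3F than in 4F (5.77% of all genes): Igfbp3 (1.95 ± 0.36, adjusted p = 0.006), Igfbp7 (1.49 ± 0.16, 0.00056) and Igf1r (0.54 ± 0.15, 0.031). Igfbp3 was 11.22, 10.86, 11.03 and 10.76 in the 3F arrays of days 3, 5, 8 and 12, against 4F means of 8.87, 8.68, 9.11 and 9.35, with every 3F array above all 16 4F arrays. On day 3 the 3F array (11.22) also stood above both GFP arrays (10.42 and 9.27), and on days 8 and 12 below GFP. Igfbp7 was 10.68, 10.19, 10.61 and 10.19 in 3F, between the 4F and GFP means on each of these days. Igf1r was 9.08, 8.89, 8.43 and 8.11 in 3F. It stood above the 4F mean by 0.7 and 1.06 on days 3 and 5 and by 0.3 and -0.05 on days 8 and 12.

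Against GFP, 6 of 10 members were lower in 3F (8.82% of all genes): Igf2 (-2.24 ± 0.25, adjusted p = 3e-05), Igfbp2 (-2.24 ± 0.4, 0.0013), Igfbp4 (-1.85 ± 0.39, 0.0039), Igfbp5 (-1.73 ± 0.4, 0.0074), Igfbp7 (-1.33 ± 0.16, 6.6e-05) and Igf2r (-0.94 ± 0.21, 0.0061). Igf1 in 3F was 7.13, 7.67, 7.84 and 7.13, above the 4F mean and, from day 5 on, below the GFP mean on each day, with differences of 1.07 ± 0.56 from 4F (adjusted p = 0.28) and -1.36 ± 0.56 from GFP (adjusted p = 0.11). Igfbp2 in 3F was 6.69, 6.71, 6.76 and 7.9. Its differences from the 4F mean were 0.17 and 0.18 on days 3 and 5 and -2.27 and -1.97 on days 8 and 12. Over all 4 days the difference was -0.86 ± 0.4 (adjusted p = 0.21). Igfbp4 (7.74, 8.62, 10.37 and 9.94) and Igfbp5 (6.81, 7.6, 9.22 and 9.27) started at the 4F level and ended above it, at 1.37 and 1.97 over 4F on day 12. Igf2 in 3F was 10.44, 9.73, 9.72 and 9.81, and the 4F array of day 12 (10.12) was above it.

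These 3F values have no replicates, and all 3F arrays lie among the unnumbered arrays. With the replicate set added as a block, 3F is compared through day 12 alone, and 0 members differ from 4F (Igfbp3 0.98, adjusted p = 0.84; Igfbp7 1.04, 0.28; Igf1r 0.12, 0.99), where 14 of all 19938 genes passed. With so few calls over all genes, the count of 0 says little about the members. Against GFP 2 members differ under the block, where 2772 of all genes passed. Those lost against GFP under the block are Igf2r (-1.2, adjusted p = 0.075), Igfbp2 (-2.53, 0.067), Igfbp4 (-1.9, 0.12) and Igfbp5 (-1.2, 0.41). The count against 4F was 5 without 4F day 12 and 5 without 3F day 12, with Igf2 (0.98, adjusted p = 0.018, and 0.99, 0.022) and Igfbp6 (0.89, 0.02, and 0.92, 0.017) added. Over all genes 2252 and 2848 passed in these refits, in either direction. The Igf1r call against 4F was lost with 3F and 4F fitted alone (0.54, adjusted p = 0.096), without 3F day 3 (0.5, 0.11), day 5 (0.42, 0.17) or day 8 (0.58, 0.083), and without 4F day 3 replicate 1 (0.54, 0.052), 4F day 5 replicate 1 (0.54, 0.057) or 4F day 8 replicate 2 (0.54, 0.051). Igfbp6 passed against 4F without 4F day 3 replicate 2 (0.81, 0.036), and Igf1 passed against 4F with 3F and 4F fitted alone (1.16, 0.017) and against GFP without GFP day 3 replicate 2 (-1.69, 0.022). In the fit without the block, 10 of 14 fibroblast markers were higher in 3F than in 4F (5.77% of all genes), and 11 were lower than in GFP (8.82%). Among the members only Igfbp7 was called both above 4F and below GFP. The part of the fibroblast markers in the members' differences was not tested.

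Across the 19 group means the members' courses were described by Pearson r, where the points share arms, day 0 and replicate sets. The closest pairs were Igfbp4 with Igfbp5 (0.95), Igf2 with Igfbp7 (0.94), Igf1 with Igfbp4 (0.88) and Igf1 with Igfbp3 (0.87). Igf1r had the lowest values, with 0.05 for Igfbp2, 0.1 for Igfbp4 and for Igfbp5, and 0.11 for Igf1. Among 2117 other genes whose group means had an SD of at least 0.5, those most like Igf2 were Serpinf1 (0.978), Layn (0.964) and Bgn (0.962), and those most like Igfbp7 were Bgn, a small matrix proteoglycan (0.988), Loxl1, which cross-links elastin (0.978), and Pmepa1 (0.968). For Igf1 they were Reck, an inhibitor of matrix proteases (0.964), Casp12 (0.962) and Dsel (0.957), and for Igfbp3 Pdgfrl (0.946), Gpm6b (0.936) and Reck (0.924). For Igfbp4 they were Steap3 (0.979), Gfpt2 (0.955) and Dram1 (0.954), and for Igfbp5 Slfn2 (0.953), Steap3 (0.934) and the PDGF receptor Pdgfra (0.922). Igfbp2 was most like Ndrg1 (0.917), Plekha2 (0.899) and Cyp2d22 (0.878), and Igfbp6 most like Gpr137b (0.931), the actin-severing protein Gsn (0.928) and Tcn2 (0.922). For the receptors they were Peak1 (0.937), Myh9 (0.929) and Axl (0.913) for Igf1r, and Arhgap28 (0.934), Sec16b (0.91) and Mrc2 (0.902) for Igf2r.

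Of the wider pathway, 57 further genes were measured. On day 8, 21 were lower and 3 higher in 4F than in GFP, with a median of -0.23 (13% and 14.5% of all genes). The proteases that free IGF from its binding proteins, and their inhibitors, moved most, with 7 of 10 lower (median -2.3). Among them were the matrix protease Mmp3 (-4.55 ± 0.71, adjusted p = 0.00017) and Adam12, which cleaves IGFBP3 and IGFBP5 (-3.42 ± 0.18, 2.7e-08), which went from 8.61 on day 0 to 6.09 in 4F and 9.51 in GFP. Of 5 further receptors 3 were lower, led by the growth hormone receptor Ghr (-3.09 ± 0.27, 9.2e-07) and the endocytic receptor Lrp1 (-2.4). Against day 0 Ghr was lower in 4F (-1.63) and higher in GFP (1.47). Of 7 further binding proteins and relatives the matricellular protein Ccn4 (-2.81) and the serine protease Htra1 (-2.78) were lower.

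Of 26 adaptors and kinases within the cell, 7 were lower and 3 higher in 4F than in GFP on day 8 (median 0.04), where 13% of all genes were lower and 14.5% higher. The regulatory subunit Pik3r1 was lower (-1.37 ± 0.2) and the catalytic subunit Pik3cb higher (1.6 ± 0.23, adjusted p = 7.2e-05), and the GFP arm had moved for both (1.52 and -1.63 against day 0), with group means of 7.87 and 8.02 on day 0 and 8.01 and 7.99 in 4F on day 8. The adaptor Shc1 was lower (-0.87) and the transcription factor Foxo4 higher (1.05). Against day 0, 4F had less of the receptor substrate Irs1 (-1.11 ± 0.18, adjusted p = 0.00053) and of Grb14, an adaptor that restrains insulin receptor signalling (-0.94), and more of Foxo4 (1.29) and Gab1 (1.07). Gab1 was also higher in GFP (0.54, adjusted p = 0.03), and Foxo3 was higher than day 0 in both arms (0.98 in 4F and 0.96 in GFP). Of 7 regulators of IGF2 and growth gene expression, Plagl1, a transcription factor of imprinted genes, was lower in 4F than in GFP (-2.06 ± 0.33, adjusted p = 0.00022), with 8.11 on day 0, 8.19 in 4F and 10.24 in GFP. Hmga2 fell in both arms against day 0 (-2.99 ± 0.25 in 4F and -2.79 ± 0.25 in GFP). The IGF2 mRNA-binding protein Igf2bp3 was lower in 4F than in GFP (-0.54) and than day 0 (-0.94), and Igf2bp1 was lower in GFP than on day 0 (-1.06). Neither of the 2 further ligands measured passed.

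Against day 0, further genes of the list passed on day 8. In 4F, Itgb3 (-1.51), Esm1 (-1.65), Ccn4 (-2.35), Adam12 (-2.52) and the metalloprotease inhibitor Timp1 (-2.14) were lower. In GFP, Esm1 was lower (-1.56) and Lrp1 (1.28), Htra1 (1.74), the gelatinase Mmp2 (2.9), Mmp3 (3.25) and Plagl1 (2.14) were higher. In the whole list of 57, on day 8 against day 0, 14 were lower and 4 higher in 4F (8.51% and 7.39% of all genes), and 5 were lower and 15 higher in GFP (11.2% and 8.92% of all genes). The 4 rises in 4F and the 5 falls in GFP are no more than those shares of the list.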

How the data were processed

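Total RNA was hybridised to single-colour Affymetrix whole-transcript arrays, per the labels. Signals for 28853 probe sets on 31 arrays were deposited on a log2 scale. Columns have nearly equal quartiles (medians 6.04 to 6.17); the authors' normalization method, software and genome build are not given in the sources used here. Values were used as deposited. Rows with 1 gene symbol (21789) gave 19938 genes; a gene with several rows kept the row with the highest mean.

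The fits used limma (version 3.58.1, R version 4.3.3): 1 mean per group over all 31 arrays (12 residual degrees of freedom), and day plus arm over 18 arrays for 3F. P-values were Benjamini-Hochberg adjusted over all genes and called under 0.05. The number of arrays limits precision.

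The fits above have no replicate block; the block was an alternative, and no pairing enters the SEs or p-values unless the block is named. The labels tie replicate 1 to 120 ng of RNA, so numbers were taken to mark labelling sets. Replicate differences of 66 pairs of groups correlated with r from 0.081 to 0.69 (median 0.32), and 65 exceeded 0.1.

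The members, the wider list of 57 measured genes and the cell type markers were chosen with earlier results of these data known. Genes named are the members, per sub-list of the wider pathway up to 2 called rises and 2 called falls on day 8 in each of 3 contrasts, and the 3 genes most like each member. Igfbp1, as a neighbour of Igfbp3, and the neural markers were named after their values were seen. Alternatives were the replicate block, each array left out, the mean of a gene's rows, quantile normalization, genes with a mean of at least 6, an intensity trend, and only the compared arrays. The fits were tested on simulated data with 200 changed genes among 19938: for 4F against GFP on day 8, 80% of changes of size 1 and 99% of size 2 (log2) were recovered. The simulated noise was independent between arrays, while replicate differences in the data correlated between groups. In the data 2597 genes were called lower and 2900 higher in that contrast. Recovery in the data may therefore differ.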

Additional observations from a re-analysis of the deposited data

Results flagged for a closer look

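The difference between 4F and GFP changed between day 1 and day 8 for 6 members by a limma contrast of the 2 days. The changes (log2, day 8 minus day 1) were -4.02 for Igf1, -3.5 for Igfbp4, -3.0 for Igf2, -3.0 for Igfbp3, -2.7 for Igfbp7 and -1.28 for Igf2r. Within the replicate 1 and replicate 2 arrays they were -3.84 and -4.2 for Igf1, -3.48 and -3.52 for Igfbp4, -2.74 and -3.26 for Igf2, -2.49 and -3.5 for Igfbp3, -2.33 and -3.07 for Igfbp7, and -0.81 and -1.75 for Igf2r. No group held 4 or more arrays, so no array was compared with the others of its group for standing apart.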

How the results depend on the processing

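Over the 12 comparisons the 10 members gave 120 differences. In 780 refits without 1 array, 698 kept direction and side of the threshold, 40 lost the call, 9 gained one and 33 changed sign; in 720 refits under the other settings the counts were 698, 15, 3 and 4. The cause of each change was not tested unless stated. Refits also change how many of all genes pass, so changed counts of members are not results about the members alone. The number of called members on day 3 (5) was 3 with only the compared groups and 3 to 6 when 1 array was left out. For GFP day 8 against day 0 it was 5 to 7 without 1 array (main 8). For 3F against 4F (3) it was 0 with the replicate block, under which 14 of all genes passed. It was 5 among genes with a mean of at least 6, where fewer genes are tested and 2200 passed, and 2 to 5 without 1 array. For 3F against GFP (6) it was 2 with the block, under which 3F is compared through its day 12 array alone and 2772 of all genes passed. The replicate block moved no other count of called members by over 1.5 times. Differences that changed sign with the block were Igf1 (-0.1) and Igfbp6 (-0.02) in 3F against 4F and Igf1r in 3F against GFP (-0.42, and -0.04 after quantile normalization). Leaving out 1 array, uncalled differences ran across 0. For 4F against GFP on day 1 these were Igf1 (-0.38 to 0.27), Igfbp3 (-0.12 to 0.51) and Igfbp4 (-0.68 to 0.35), and on day 3 Igf1 (-1.21 to 0.18). For the change from day 1 to day 8 they were Igf1r (-0.1 to 0.26) and Igfbp2 (-0.45 to 0.46). For 4F day 1 against day 0 they were Igf1 (-0.13 to 0.37), Igfbp4 (-0.65 to 0.04) and Igfbp6 (-0.26 to 0.29). For GFP day 1 against day 0 they were Igf1 (-0.14 to 0.51), Igf2 (-0.12 to 0.43), Igfbp2 (-0.61 to 0.3), Igfbp4 (-0.65 to 0.37) and Igfbp6 (-0.03 to 0.52). For 3F against GFP they were Igf1r (-0.12 to 0.12), Igfbp3 (-0.45 to 0.15) and Igfbp6 (-0.32 to 0.06). With 2 arrays a group at most, and 1 in each 3F group, small differences are beyond these data.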
